A study of Caenorhabditis elegans with 23 samples.

Results

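The *flp* and *nlp* genes of *C. elegans* were taken as all genes whose WBcel235 name is flp- or nlp- followed by a number. They were 102 of the 21982 genes into which transcripts were summed: 31 *flp* genes, 11 epidermal-type *nlp* genes (*nlp-24* to *nlp-34*) and 60 other *nlp* genes. All 102 were among the quantified transcripts, and 32 of them lie on chromosome X.

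PolyA+ RNA of mixed-stage whole animals was sequenced in 23 libraries of strains with and without SID-1, the importer of double-stranded RNA, to find genes whose RNA depends on *sid-1*. The deletion set held *sid-1(jam113)*, which lacks the whole *sid-1* coding sequence, and wild type (3 libraries each). The nonsense and revertant set held *sid-1(jam86)*, *sid-1(jam80)* and wild type (3 each). *sid-1(jam80)* carries a nonsense codon in *sid-1* and *sid-1(jam86)* was made from it by genome editing that restored the wild-type sequence. The previous set held the older alleles *sid-1(qt9)* (nonsense) and *sid-1(tm2700)* (deletion), the rescued strain *sid-1(tm2700); tmIs1005[sid-1(+)]*, which carries wild-type *sid-1* on an integrated transgene, and wild type (2 each). The authors' strain list names *vps-45* mini as a further part of this transgene. Wild type was N2 in every set, and each mutant is represented by 1 strain, so an allele and the rest of its strain's background cannot be told apart. The methods call the replicates biological triplicates or duplicates. The labels give liquid culture for the previous set, whereas the methods describe animals washed from plates. That set also differed in extraction (TRIzol against RNAzol for RNA over 200 nucleotides) and in its single, not paired-end, reads, so comparisons between strains were made within sets.

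FLP (FMRFamide-like) and NLP (neuropeptide-like) peptides are cut from precursor proteins by the convertase EGL-3, trimmed by EGL-21, amidated at the C terminus in many cases, and released from dense-core vesicles to act mostly on G protein-coupled receptors. Most members are made by neurons, where they modulate feeding, locomotion, egg laying and sleep. Several of the epidermal-type genes, with *nlp-29* and *nlp-31* the best known, instead encode glycine-rich and aromatic-rich antimicrobial peptides of the epidermis, which rise after fungal infection or wounding through the receptor DCAR-1, a p38 MAP kinase cascade and the transcription factor STA-2. Mixed-stage whole animals do not show which cells made an RNA, and fewer cells of a type and less RNA per cell cannot be told apart.

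Library totals ranged from 35320382 to 79287591 estimated counts in the plate-grown sets and from 22147631 to 26396892 in the previous set. At this depth 62 members had at least 100 reads in every library and 94 had at least 10, whereas 5 had 0 reads in at least 1 library. *sid-1* itself had 1.19 to 1.43 CPM (counts scaled to library size by the trimmed mean of M-values) in *sid-1(jam113)* and 49.1 to 54.2 CPM in its wild type. It had 27.8 to 34.1 CPM in *sid-1(jam86)*, 16.5 to 18.6 in *sid-1(jam80)* and 32.7 to 35.5 in their wild type. Replicate 3 of *sid-1(jam113)* stood closer to wild type than the other *sid-1(jam113)* libraries for many members, and replicate 1 of *sid-1(qt9)* stood apart from replicate 2. Counts of members called in these strains, class medians and the lists that moved with them are given with and without these libraries. For some lists only the count without the library is given. A count from a fit that leaves out a library, given without a share of all genes, does not show a change particular to the members. No neuron marker and no epidermis marker of the 12 in each list was at 0 in all libraries of any group.

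A few genes held much of the members' RNA, and the class that led depended on the set. By TPM (a transcript's share of its library, corrected for length), *nlp-33* had a lowest, median and highest value of 752, 870.4 and 953 TPM in wild type of the nonsense and revertant set. *nlp-24*, which also encodes opioid-like peptides with a role in feeding, had 704, 708 and 726 TPM in the same libraries. These ranges did not overlap, and the third in order, *nlp-36*, lay lower at 384 to 455 TPM and overlapped *nlp-27* at 300.2 to 412 TPM. The summed TPM in these wild-type libraries was 2240 to 2375 for the epidermal-type genes, 995 to 1147 for the other *nlp* genes and 455 to 504.5 for the *flp* genes. In wild type of the previous set the sums were 1411 to 1424 TPM for the epidermal-type genes, 4699 to 4843 for the other *nlp* genes and 2204 to 2276 for the *flp* genes. The authors' effective lengths of short genes differed between sets, so TPM are not on one scale across them. For *nlp-33* the effective length was 105.0 bases in the previous set and 199.1 to 219.5 in the nonsense and revertant set. In wild type of the nonsense and revertant set the highest *flp* gene was *flp-28*, at 58.0 to 60.9 TPM.

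In wild type of the deletion set, *nlp-33* (358 to 465 TPM) and *nlp-36* (357 to 404 TPM) led with overlapping ranges. In wild type of the previous set the order was another: *nlp-39* came first at 574 and 711 TPM, followed by *nlp-12* at 538.5 and 568 TPM, without overlap. This order rests on the length correction, since the authors' effective length was 37 bases for *nlp-39* and 131.0 for *nlp-12* there. By counts scaled to library totals *nlp-39* averaged 50.3 CPM in these libraries, below *nlp-12* at 153 and *nlp-40* at 213 CPM. *nlp-12* encodes cholecystokinin-like peptides that regulate locomotion. *nlp-40*, whose peptides are released from the intestine to time defecation, had 252 to 279.9 TPM in those libraries and 145 to 166.5 TPM in wild type of the nonsense and revertant set. At the other end, *flp-23* had at most 1 read in any library, and *nlp-22* had at most 4.

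The restored *sid-1(jam86)* strain was first compared with wild type of its set. Of 98 members tested, 6 were higher and 0 lower in *sid-1(jam86)* at an adjusted p under 0.05, and 5 of the 6 were epidermal-type genes. Over all genes tested in this comparison, 3.28% changed and 2.38% were higher. The 10 epidermal-type genes tested had a median log2 fold change of 0.54, and 9 of them were above 0. The 30 *flp* genes tested had a median of 0.05 and the 58 other *nlp* genes 0.01, beside 0.02 over all genes. Changes were called by the quasi-likelihood test of edgeR, with p-values adjusted over all genes tested (Benjamini-Hochberg), and every adjusted p here is from that test unless another tool is named.

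*nlp-29* had 29.1, 27.4 and 30.8 CPM in *sid-1(jam86)*, against 14.02, 18.9 and 15.02 CPM in wild type. Every *sid-1(jam86)* library was above every wild-type library, and the means were 29.1 ± 1.68 and 15.98 ± 2.58 CPM (SD, n = 3 each; log2 fold change 0.86, SE 0.097, adjusted p = 0.000375 by edgeR). This gene, at 3984425 to 3984847 on chromosome V (plus strand), encodes the antimicrobial peptide most used as a reporter of the epidermal response. *nlp-31* had 43.7, 36.5 and 39.8 CPM in *sid-1(jam86)*, against 26.4, 28.2 and 28.5 CPM in wild type. *nlp-34* had 9.48, 10.1 and 10.8 CPM in *sid-1(jam86)*, against 5.33, 6.27 and 6.31 CPM in wild type. For both genes the groups did not overlap, with log2 fold changes of 0.53 (SE 0.071) and 0.76 (SE 0.10) and an adjusted p of 0.00137 each by edgeR.

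*nlp-33* had 303, 338 and 328.5 CPM in *sid-1(jam86)*, against 183, 229 and 254 CPM in wild type. It led the members of this set by TPM, and its log2 fold change was 0.54 (SE 0.092, adjusted p = 0.00592 by edgeR). *nlp-25*, on chromosome V at 19606180 to 19608419, was far less abundant, with 3.55, 5.07 and 3.89 CPM in *sid-1(jam86)*, against 1.61, 1.55 and 0.892 CPM in wild type. Its log2 fold change of 1.62 (SE 0.20, adjusted p = 0.000677 by edgeR) rested on 165 to 254 reads per library in *sid-1(jam86)* and 43 to 87 in wild type. Neither gene overlapped between the groups.

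The remaining epidermal-type genes did not pass the test. *nlp-26* had 6.90, 10.2 and 11.3 CPM in *sid-1(jam86)*, against 6.53, 6.75 and 5.56 CPM in wild type (log2 fold change 0.58, adjusted p = 0.0541 by edgeR). *nlp-24* had a log2 fold change of 0.19, *nlp-27* of 0.25, *nlp-30* of 0.19 and *nlp-28* of -0.02, with adjusted p from 0.106 to 0.933 by edgeR. *nlp-24* and *nlp-26* were higher in every *sid-1(jam86)* library than in any of wild type, whereas *nlp-27*, *nlp-28* and *nlp-30* overlapped. *nlp-32* had 2 reads in each *sid-1(jam86)* library and 0 or 1 in wild type and was not tested.

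**Figure D1:**
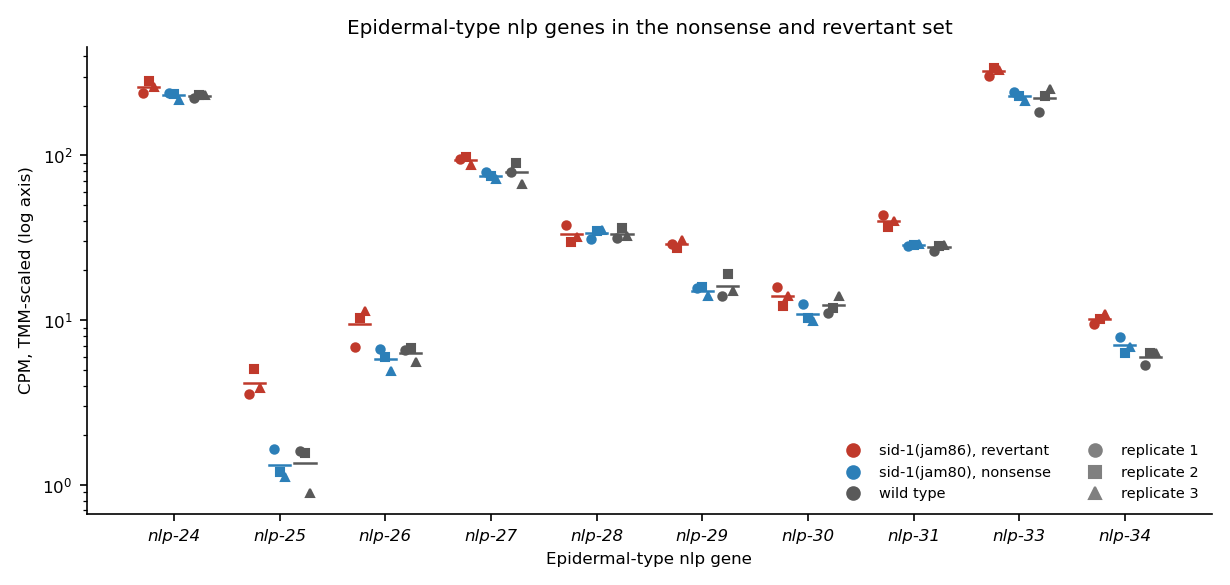
CPM (log axis) of the 10 epidermal-type *nlp* genes above the filter on low counts in each library of *sid-1(jam86)*, *sid-1(jam80)* and wild type of the nonsense and revertant set, with the replicate as the symbol and the group mean as a line. *nlp-25*, *nlp-29*, *nlp-31*, *nlp-33* and *nlp-34* lie above both other groups in all 3 *sid-1(jam86)* libraries, while *nlp-28* overlaps throughout.

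*flp-14* was the only *flp* gene called. It had 8.70, 9.05 and 12.01 CPM in *sid-1(jam86)*, against 6.94, 6.23 and 4.88 CPM in wild type, and the groups did not overlap. Its log2 fold change of 0.72 (SE 0.14, adjusted p = 0.0148 by edgeR) no longer passed without wild-type replicate 3 (adjusted p = 0.0732) or without *sid-1(jam86)* replicate 3 (adjusted p = 0.0971). *flp-15* was above wild type in all *sid-1(jam86)* libraries by a log2 fold change of 0.44 but missed the threshold, with an adjusted p of 0.0590 by edgeR. The well expressed *flp-12*, *flp-24* and *flp-28* had log2 fold changes of -0.02, -0.24 and 0.06. Of the abundant other *nlp* genes, *nlp-36* had 100.4, 93.8 and 84.4 CPM in *sid-1(jam86)* and 110.9, 101 and 109 CPM in wild type, below it in every library. Its log2 fold change of -0.20 did not pass (adjusted p = 0.105 by edgeR). Without *sid-1(jam86)* replicate 1 the number of members called was 12, with no share of all genes given for that fit.

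Other lists moved in the same libraries. Of 12 epidermis markers 3 were higher in *sid-1(jam86)*, namely the collagen genes *col-10*, *dpy-13* and *sqt-3*, with a median of 0.19 over the list and a summed level of 2955 to 3241 TPM in *sid-1(jam86)*, against 2525 to 2737 TPM in wild type. Of 28 sperm markers (*msp* genes) 12 were higher, with a median of 0.27 and 6438 to 6904 TPM in *sid-1(jam86)*, against 5032 to 5699 TPM in wild type. Of 12 oocyte and germline markers 1 was lower (*nos-2*), with a median of -0.14. No neuron marker of 12 changed, with a median of 0.09 and 251.5 to 286 TPM in *sid-1(jam86)*, against 241 to 259 TPM in wild type. The part of these lists in the epidermal-type genes' change was not tested.

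Of the 8 caenacins tested, a second family of epidermal antimicrobial peptides, 1 was higher in *sid-1(jam86)*, *cnc-8* (log2 fold change 0.51, adjusted p = 0.00267 by edgeR). The 15 genes of the epidermal immune pathway had 0 calls (2 at an unadjusted p under 0.05) and a median of 0.01. No gene of precursor processing (9) or dense-core vesicles (10) was called (1 each at an unadjusted p under 0.05), and of 56 receptors tested 1 was higher, *pdfr-1*, the receptor of the PDF peptides (log2 fold change 0.44, adjusted p = 0.0202 by edgeR).

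*sid-1(jam86)* was next set against *sid-1(jam80)*, the strain it was made from, so that its own libraries serve in this comparison too. Of 97 members tested, 7 were higher and 0 lower, beside 1.25% of all genes changed and 0.97% higher. They were *flp-14*, *nlp-25*, *nlp-27*, *nlp-29*, *nlp-31*, *nlp-33* and *nlp-34*. *nlp-29* had 15.6, 15.8 and 13.9 CPM in *sid-1(jam80)*, below every *sid-1(jam86)* library given above (log2 fold change 0.96, SE 0.072, adjusted p = 4.22e-05 by edgeR). The log2 fold changes of *nlp-25*, *nlp-33* and *nlp-31* were 1.68, 0.51 and 0.50, with adjusted p from 0.000494 to 0.00251 by edgeR. *flp-14* had 4.98, 5.55 and 5.48 CPM in *sid-1(jam80)*, below all *sid-1(jam86)* libraries (log2 fold change 0.90, adjusted p = 0.00337 by edgeR).

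*nlp-27* had 94.3, 97.9 and 87.7 CPM in *sid-1(jam86)*, against 79.4, 74.3 and 72.1 CPM in *sid-1(jam80)*, and passed with a log2 fold change of 0.32 and an adjusted p of 0.0137 by edgeR. *nlp-34* had 7.91, 6.31 and 6.81 CPM in *sid-1(jam80)* (log2 fold change 0.54, adjusted p = 0.0228 by edgeR). Both calls were lost when *sid-1(jam80)* replicate 2 or 3, or *sid-1(jam86)* replicate 2, was left out (adjusted p from 0.0663 to 0.124), and that of *nlp-34* also without *sid-1(jam86)* replicate 3 (adjusted p = 0.139). Without *sid-1(jam86)* replicate 1 there were 12 calls in place of 7, with no share of all genes given for that fit. The epidermal-type median was 0.51, against -0.01 for the *flp* genes and -0.02 for the other *nlp* genes. *cnc-3* and *cnc-8* were the caenacins that rose with them (log2 fold changes 0.68 and 0.50, adjusted p = 0.0102 and 0.00789 by edgeR), and 1 of 12 epidermis markers (*col-10*) and 4 of 28 sperm markers were higher.

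*sid-1(jam80)* was compared with the same wild-type libraries as *sid-1(jam86)*. Of 98 members tested, 0 were called by edgeR, by limma voom or by DESeq2, with 6 at an unadjusted p under 0.05, beside 0.0665% of all genes changed. The 10 epidermal-type genes had log2 fold changes from -0.18 (*nlp-30*) to 0.22 (*nlp-34*), and every one of them overlapped between the groups. *flp-13*, whose peptides promote sleep after cellular stress, had the lowest p, with 12.54, 11.93 and 12.34 CPM in *sid-1(jam80)*, against 9.676, 10.25 and 10.6 CPM in wild type, without overlap (log2 fold change 0.27, SE 0.077, adjusted p = 0.633 by edgeR). *nlp-33* had 241, 228 and 214 CPM in *sid-1(jam80)*, against 183, 229 and 254 CPM in wild type (log2 fold change 0.04, SE 0.092).

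The genes of the *nlp-29* cluster lie within 10.9 kb of chromosome V, from 3978825 to 3989770, in the order *nlp-34*, *nlp-31*, *nlp-30*, *nlp-29*, *nlp-28* and *nlp-27*. *nlp-34* is on the minus strand and the other 5 are on the plus strand. Along the cluster, *nlp-34*, *nlp-31* and *nlp-29* rose in *sid-1(jam86)*, while *nlp-30*, which lies between *nlp-31* and *nlp-29*, and *nlp-28* did not pass the test against either strain.

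**Figure D2:**
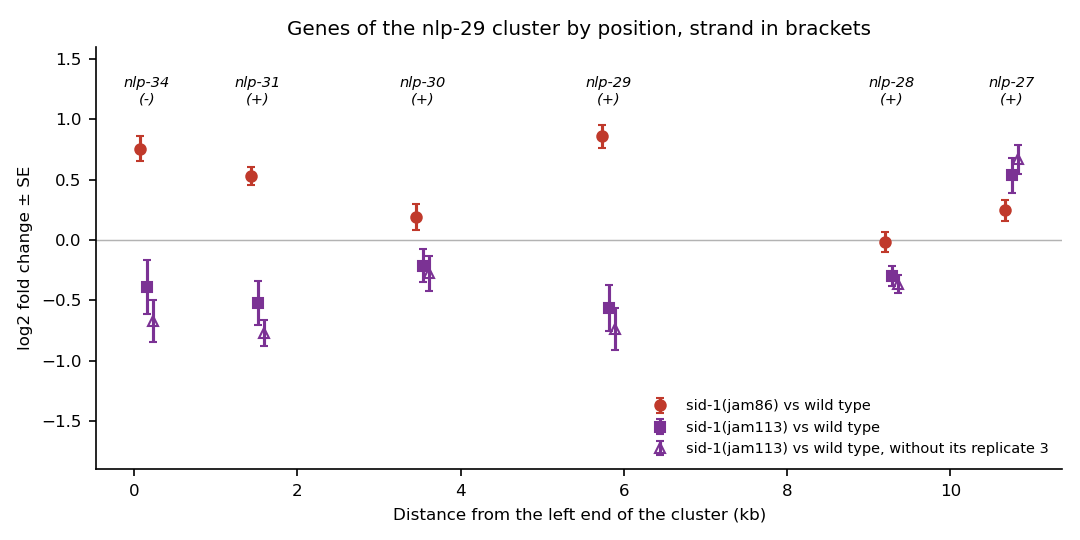
Log2 fold change (± SE from the edgeR fit) of the 6 genes of the *nlp-29* cluster against their distance from the left end of the cluster in kb, for *sid-1(jam86)* and for *sid-1(jam113)*, each against wild type of its own set, and for *sid-1(jam113)* without its replicate 3. *nlp-29* lies at 0.86 in *sid-1(jam86)* and at -0.57 in *sid-1(jam113)*, while *nlp-27* lies above 0 in both.

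The full deletion *sid-1(jam113)* was compared with wild type of the deletion set. None of the 97 members tested passed by edgeR or limma voom, with 7 at an unadjusted p under 0.05, 6 of them epidermal-type, beside 0.197% of all genes changed. DESeq2 called 3, which were *nlp-26*, *nlp-27* and *nlp-28*. *nlp-26*, the member with the lowest p, had 14.8, 9.97 and 7.52 CPM in *sid-1(jam113)*, against 5.26, 4.67 and 6.44 CPM in wild type, without overlap (log2 fold change 0.97, SE 0.24, adjusted p = 0.166 by edgeR). *nlp-27* had 79.03, 64.8 and 53.8 CPM in *sid-1(jam113)*, against 45.8, 39.3 and 50.98 CPM in wild type, again without overlap (log2 fold change 0.54, adjusted p = 0.190 by edgeR). *nlp-24* had 69.6, 70.5 and 43.7 CPM in *sid-1(jam113)*, against 46.4, 37.2 and 48.2 CPM in wild type, where replicate 3 brings the groups to overlap (log2 fold change 0.48, adjusted p = 0.327 by edgeR).

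Other genes of the cluster had log2 fold changes below 0 that did not pass the test. *nlp-31* had 12.4, 14.3 and 20.96 CPM in *sid-1(jam113)*, against 22.6, 24.8 and 21.3 CPM in wild type (log2 fold change -0.52, adjusted p = 0.289 by edgeR). *nlp-29* had 8.16, 9.97 and 12.5 CPM in *sid-1(jam113)*, against 12.4, 18.6 and 14.5 CPM in wild type (log2 fold change -0.57, adjusted p = 0.278 by edgeR). *nlp-28* had 25.8, 28.2 and 30.97 CPM in *sid-1(jam113)*, against 33.95, 36.5 and 34.1 CPM in wild type (log2 fold change -0.30, adjusted p = 0.204 by edgeR). *nlp-28*, *nlp-30* and *nlp-31* were below wild type in every library, while *nlp-29* overlapped by replicate 3 alone. *nlp-33*, *nlp-34* and *nlp-30* had log2 fold changes of -0.17, -0.39 and -0.21 and *nlp-25* of 0.16.

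**Figure D3:**
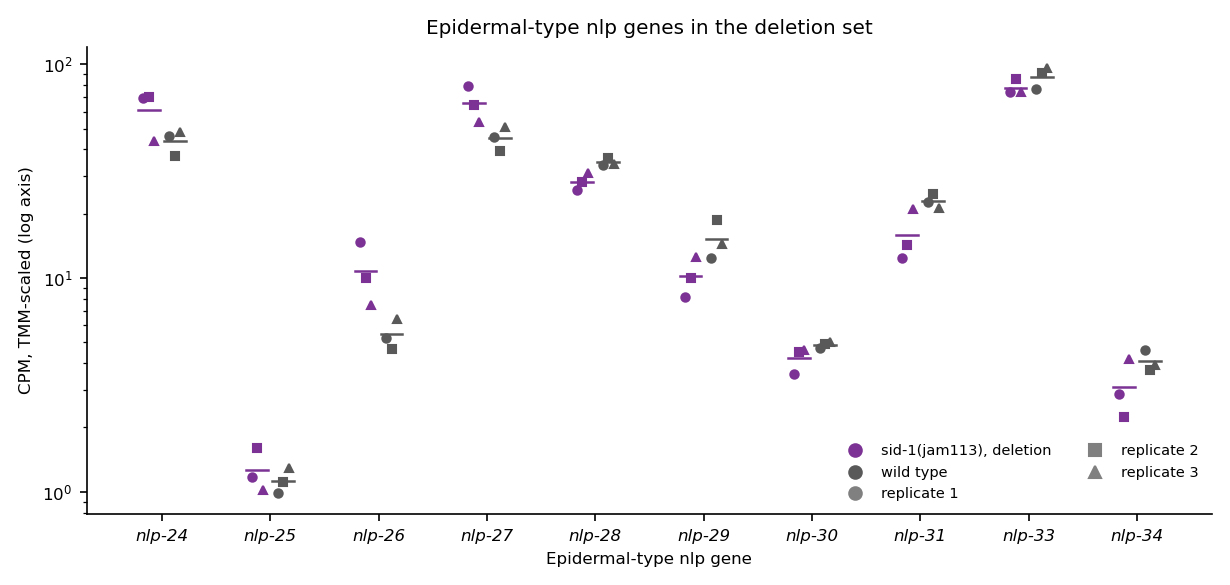
CPM (log axis) of the 10 epidermal-type *nlp* genes above the filter on low counts in each library of *sid-1(jam113)* and wild type of the deletion set, with the replicate as the symbol and the group mean as a line. For *nlp-24*, *nlp-26*, *nlp-27*, *nlp-29* and *nlp-31* replicate 3 of *sid-1(jam113)* is the library nearest to wild type.

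Without replicate 3 of *sid-1(jam113)*, 8 members passed, and 8.23% of all genes did. *nlp-24*, *nlp-26* and *nlp-27* were then higher in *sid-1(jam113)* by 0.68, 1.18 and 0.67 on the log2 scale (adjusted p from 0.00574 to 0.0108 by edgeR). *nlp-28*, *nlp-29* and *nlp-31* were lower, with log2 fold changes of -0.37, -0.74 and -0.77 (adjusted p from 0.00364 to 0.0337 by edgeR). *flp-10* (-0.58) and *nlp-2* (-1.21), named after their values were seen, were lower too (adjusted p = 0.00910 and 0.00557 by edgeR). *nlp-2* had 1.07, 1.37 and 3.199 CPM in the 3 *sid-1(jam113)* libraries, against 2.98, 2.94 and 2.64 CPM in wild type, so that replicate 3 lay above all wild-type libraries. Since the fit without replicate 3 uses 2 libraries of *sid-1(jam113)*, these calls rest on a library being left out after its values were seen.

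The class medians of log2 fold change in *sid-1(jam113)* were -0.05 for the *flp* genes, -0.07 for the other *nlp* genes and -0.19 for the epidermal-type genes, with 0 over all genes, and without replicate 3 they were -0.10, -0.13 and -0.21. The summed level of the *flp* genes was 545 to 594 TPM in *sid-1(jam113)*, against 609 to 622 TPM in wild type. No neuron or epidermis marker of 12 each was called (2 each at an unadjusted p under 0.05). The summed neuron markers were at 249.5 to 255 TPM in *sid-1(jam113)*, against 259 to 298 TPM in wild type, and the summed epidermis markers at 1085 to 1281 TPM, against 827 to 1124 TPM in wild type. Without replicate 3 of *sid-1(jam113)*, 1 epidermis marker was higher (*col-19*) and 0 neuron markers were called (1 at an unadjusted p under 0.05). Of 12 intestine markers 4 were lower and 1 higher, beside 8.23% of all genes called. Of 10 muscle markers 2 were higher (*mup-2* and *unc-89*), and of 9 processing genes 2 were lower (*aex-5* and *kpc-1*). Of 56 receptors 2 were higher (*sprr-2* and *pdfr-1*), and of 8 caenacins 1 was higher and 1 lower. The part of these lists in the neuropeptide levels was not tested. In that fit 3 of 15 genes of the epidermal immune pathway were lower, *tir-1* (-0.39), the receptor gene *dcar-1* (-0.49) and *nipi-3* (-0.29), with adjusted p from 0.00968 to 0.0274 by edgeR. With all 3 libraries 0 of the 15 were called (2 at an unadjusted p under 0.05).

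Whether *sid-1(jam113)* and *sid-1(jam80)* differed in their changes was tested as an interaction. None of the 99 members tested passed by edgeR or limma voom (13 at an unadjusted p under 0.05), beside 0.25% of all genes, and 1, *nlp-26*, passed by DESeq2. By edgeR *nlp-26* had the lowest p, with a change in *sid-1(jam113)* that exceeded that in *sid-1(jam80)* by 1.08 on the log2 scale (adjusted p = 0.153). Without *sid-1(jam113)* replicate 3 there were 9 calls. The same test between *sid-1(jam86)* and *sid-1(jam113)*, added after the opposite signs of *nlp-29* were seen, called 1 of 99 members, *nlp-29*, beside 0.0989% of all genes. Its change in *sid-1(jam86)* exceeded that in *sid-1(jam113)* by 1.42 on the log2 scale (SE 0.23, adjusted p = 0.0347 by edgeR). Limma voom called 1 member, DESeq2 6, and *nlp-29* passed by both. The call by edgeR was lost in 6 of the 12 fits that left out 1 library, in which the difference was 1.34 to 1.46 and the adjusted p 0.0704 to 0.117, and 10 members passed without *sid-1(jam113)* replicate 3.

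In the previous set the *flp* genes and other *nlp* genes had median log2 fold changes below 0 in all 3 strains against wild type, and most called members were lower. The comparisons of these strains with wild type share the same 2 wild-type libraries, so their likeness is not independent. In *sid-1(qt9)*, 14 of 101 members tested were lower and 0 higher, beside 1.84% of all genes changed and 0.81% lower. They were 5 of 30 *flp* genes and 9 of 60 other *nlp* genes. All 30 *flp* genes had a log2 fold change below 0 (median -0.46, from -0.65 to -0.28), as had 58 of 60 other *nlp* genes (median -0.42), beside a median of -0.02 over all genes. The groups did not overlap, with *sid-1(qt9)* lower, for 84 members, beside 24.3% of all genes. The 11 epidermal-type genes had 0 calls (2 at an unadjusted p under 0.05) and a median of -0.12.

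*nlp-12* had 77.4 and 116.3 CPM in *sid-1(qt9)*, against 150.1 and 161 CPM in wild type. Both *sid-1(qt9)* libraries lay below both of wild type, though they differed between themselves by more than the wild-type pair did (log2 fold change -0.69, SE 0.13, adjusted p = 0.00558 by edgeR). *flp-15* had 48.9 and 67.3 CPM in *sid-1(qt9)*, against 82.3 and 87.7 CPM in wild type (log2 fold change -0.55, adjusted p = 0.0209 by edgeR). *nlp-5* had the largest fall among the called members, with 4.67 and 6.89 CPM in *sid-1(qt9)*, against 10.2 and 10.1 CPM in wild type (log2 fold change -0.81, adjusted p = 0.0341 by edgeR). The other members named by size were *nlp-69* (-0.72), *nlp-51* (-0.66), *nlp-50* (-0.62), *nlp-17* (-0.62), *nlp-61* (-0.61), *flp-16* (-0.58), *nlp-55* (-0.58) and *flp-19* (-0.57). In each of them replicate 1 of *sid-1(qt9)* was the lowest library.

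The calls in *sid-1(qt9)* depended on single libraries. The summed *flp* level was 1537 and 2030 TPM in *sid-1(qt9)*, against 2276 and 2204 TPM in wild type. Without replicate 1 the *flp* median was -0.25, the other *nlp* median -0.26, the epidermal-type median -0.04, and 2 members passed, beside 1.96% of all genes. These were *nlp-12* (-0.42, adjusted p = 0.0175) and *nlp-39* (-0.71, adjusted p = 2.82e-05), which was not among the 14. The other 9 members named by size lost their calls, with log2 fold changes from -0.31 (*flp-19* and *nlp-55*) to -0.58 (*nlp-69*), and *nlp-5* was at -0.56 (adjusted p = 0.194). Without replicate 2 the *flp* median was -0.67. Leaving out either wild-type library left 4 calls. The call of *nlp-12* was lost with DESeq2, and its adjusted p over all alternatives reached 0.197.

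Exons of *flp-16*, *flp-19* and *nlp-17* overlap those of *romo-1*, *abl-1* and *seld-1* on the other strand, and the kit named for this set is not the stranded version. Those 3 neighbours had log2 fold changes of -0.14, 0.15 and 0.05 in *sid-1(qt9)*, and none was called (adjusted p from 0.594 to 0.902 by edgeR).

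Genes for the processing, release and reception of the peptides were counted by the same test. Of 9 precursor processing genes 1 was lower in *sid-1(qt9)*, *sbt-1*, the chaperone of EGL-3 (log2 fold change -0.43, adjusted p = 0.0493 by edgeR). Of 7 other neuropeptide precursors, 2 were lower, *pdf-1* (-0.46) and *snet-1* (-0.59), with adjusted p of 0.0492 and 0.0382 by edgeR. Without replicate 1 of *sid-1(qt9)* none of these 3 passed (*sbt-1* -0.24, *pdf-1* -0.24 and *snet-1* -0.30, adjusted p from 0.264 to 0.387 by edgeR). Of 10 dense-core vesicle genes and 57 receptors 0 were called (0 and 9 at an unadjusted p under 0.05), with medians of -0.12 and -0.27. The 12 neuron markers were all below 0 with a median of -0.15 and 0 calls (0 at an unadjusted p under 0.05), and their summed level was 280.5 and 309 TPM in *sid-1(qt9)*, against 292 and 286 TPM in wild type.

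Marker lists of other tissues moved in *sid-1(qt9)* as well. Higher were 4 of 12 intestine markers, the yolk protein genes *vit-1*, *vit-3*, *vit-5* and *vit-6*, 4 of 10 muscle markers (*unc-54*, *myo-3*, *unc-22* and *unc-89*) and 2 of 12 epidermis markers (*wrt-2* and *sqt-3*). The summed intestine markers were at 6370 to 6567 TPM in *sid-1(qt9)*, against 5124 to 5426 TPM in wild type. The summed muscle markers were at 1251 to 1505 TPM in *sid-1(qt9)*, against 1126 to 1182 TPM in wild type. Without replicate 1 of *sid-1(qt9)* these muscle and epidermis markers were still called, with *mup-2* and *bli-1* in addition, while of the intestine markers *vit-3* and *vit-4* were. The part of these shifts in the levels of the neuropeptide genes was not tested.

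In *sid-1(tm2700)* 12 of 100 members were lower than in wild type and 0 higher, beside 1.11% of all genes changed and 0.601% lower. They were 5 of 30 *flp* genes and 7 of 59 other *nlp* genes. The medians were -0.34 for the *flp* genes, of which all 30 were below 0, and -0.28 for the other *nlp* genes, beside 0.00 over all genes. For 75 members the groups did not overlap with *sid-1(tm2700)* lower, beside 20.4% of all genes. *nlp-39* had 24.2 and 23.4 CPM in *sid-1(tm2700)*, against 45.2 and 57.01 CPM in wild type (log2 fold change -1.10, SE 0.12, adjusted p = 0.00174 by edgeR), and stayed past the threshold in every alternative, from -1.26 to -0.93. *nlp-12* had 107 and 113.2 CPM in *sid-1(tm2700)*, against 150.1 and 161 CPM in wild type (log2 fold change -0.50, adjusted p = 0.0113 by edgeR), and it too passed in every alternative.

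*flp-17*, which encodes ligands of the receptor EGL-6 that restrain egg laying, had 31.5 and 31.5 CPM in *sid-1(tm2700)*, against 45.1 and 43.4 CPM in wild type (log2 fold change -0.49, adjusted p = 0.0230 by edgeR). *flp-10*, another source of EGL-6 ligands, had 50.9 and 46.9 CPM in *sid-1(tm2700)*, against 67.3 and 70.2 CPM in wild type (log2 fold change -0.49, adjusted p = 0.0195 by edgeR). The groups overlapped for neither gene. The other called members named by size were *nlp-71* (-0.55), *nlp-11* (-0.54), *nlp-3* (-0.47), *flp-15* (-0.46), *flp-27* (-0.45) and *nlp-17* (-0.44). With counts rebuilt from TPM and length the calls of *nlp-71*, *nlp-3* and *flp-27* were lost (adjusted p from 0.0661 to 0.152 by edgeR). Those of *nlp-3* and *flp-27* were also lost with upper-quartile normalization (0.0635 and 0.0568). With the replicate number as a block, all members named by size but *nlp-39* and *nlp-12* lost their calls (0.0536 to 0.161). There were 9 calls without *sid-1(tm2700)* replicate 1, 20 without wild-type replicate 1 and 32 without wild-type replicate 2. The call of *flp-27* was lost without *sid-1(tm2700)* replicate 1 (adjusted p = 0.177) and that of *nlp-3* without its replicate 2 (adjusted p = 0.135). The epidermal-type genes had 0 calls (4 at an unadjusted p under 0.05), a median of 0.14 and a summed level of 1696 to 1714 TPM in *sid-1(tm2700)*, against 1411 to 1424 TPM in wild type. Of the 10 caenacins tested 2 were higher, *cnc-6* and *cnc-11* (log2 fold changes 2.55 and 1.198, adjusted p = 0.0455 and 0.00970 by edgeR), and the list summed to 455 to 484 TPM in *sid-1(tm2700)*, against 287 to 298 TPM in wild type. Of the processing genes 1 was lower, again *sbt-1* (-0.35, adjusted p = 0.0402 by edgeR), and of 12 neuron markers 0 were called (0 at an unadjusted p under 0.05), with a median of -0.02 and 312 to 314.5 TPM in *sid-1(tm2700)*, against 286 to 292 TPM in wild type. Of the markers of other tissues, 1 of 12 intestine (*vit-3*) and 1 of 10 muscle markers (*unc-54*) were higher and 1 of 12 epidermis markers (*dpy-13*) was lower.

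The rescued strain, in which *sid-1* stood at 44.0 to 52.0 CPM against 31.2 to 32.5 CPM in wild type, was compared with the same 2 wild-type libraries. Of 100 members, 11 were lower and 2 higher than in wild type, beside 3.54% of all genes changed and 2.28% lower. The lower members were 4 of 30 *flp* genes, of which all 30 were below 0 (median -0.29), and 7 of 59 other *nlp* genes (median -0.25), beside 0.00 over all genes. For 63 members the groups did not overlap with the rescued strain lower, beside 22.2% of all genes. *nlp-39* had 29.3 and 28.8 CPM in the rescued strain, against 45.2 and 57.01 CPM in wild type (log2 fold change -0.82, adjusted p = 3.6e-05 by edgeR). *nlp-3*, which promotes egg laying, had 16.1 and 22.3 CPM in the rescued strain, against 34.6 and 32.9 CPM in wild type (log2 fold change -0.81, adjusted p = 0.000225 by edgeR). Both passed in every alternative.

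*nlp-71* (-0.72), *nlp-80* (-0.67), *nlp-11* (-0.64), *flp-17* (-0.60), *nlp-51* (-0.60), *flp-3* (-0.52) and *flp-27* (-0.51) were the other lower members named by size. Of these, *nlp-71*, *flp-17*, *nlp-51*, *flp-3* and *flp-27* lost their calls without replicate 1 of the rescued strain (adjusted p from 0.0532 to 0.190), and *flp-3*, *flp-27* and *nlp-51* also without wild-type replicate 1 (0.0618 to 0.361). With DESeq2 the calls of *nlp-71* and *flp-3* were lost too (adjusted p = 0.467 and 0.0728). With rebuilt counts both were lost as well (0.162 and 0.0808 by edgeR), and *flp-3* also with upper-quartile normalization (0.0671). *nlp-28* had 46.1 and 63.5 CPM in the rescued strain, against 38.1 and 39.02 CPM in wild type (log2 fold change 0.51, adjusted p = 0.0162 by edgeR). *nlp-24* had 98.9 and 133 CPM in the rescued strain, against 86.3 and 85.0 CPM in wild type (log2 fold change 0.43, adjusted p = 0.0416 by edgeR). Exons of *nlp-24* overlap those of *glb-15* on the other strand. The call of *nlp-28* was lost with DESeq2 (adjusted p = 0.05002), with rebuilt counts (0.0677), without wild-type replicate 1 or 2 (0.117 and 0.0679) and without replicate 2 of the rescued strain, where its log2 fold change was 0.26 (adjusted p = 0.397 by edgeR). The epidermal-type median was 0.19, and it was -0.16 without replicate 2 of the rescued strain, the library in which both genes were highest. The number of members called was 8 without replicate 1 of the rescued strain, 32 without its replicate 2, and 6 without wild-type replicate 1.

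In this strain 3 of the processing enzymes were lower, *egl-3* (-0.70), *egl-21* (-0.49) and the amidating enzyme gene *pghm-1* (-0.46), with adjusted p from 0.000185 to 0.0166 by edgeR. The dense-core vesicle gene *ida-1* (-0.46) and the precursor gene *snet-1* (-0.44) were lower too (adjusted p = 0.0169 and 0.0311 by edgeR). Of 12 neuron markers 0 were called (2 at an unadjusted p under 0.05), with a median of -0.04 and 275.5 to 277 TPM in the rescued strain, against 286 to 292 TPM in wild type. Of the markers of other tissues, 4 of 10 muscle markers, 3 of 12 epidermis markers and 2 of 12 oocyte and germline markers were lower, and 2 of 12 intestine markers were higher. Their part in the neuropeptide levels was not tested.

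**Figure D4:**
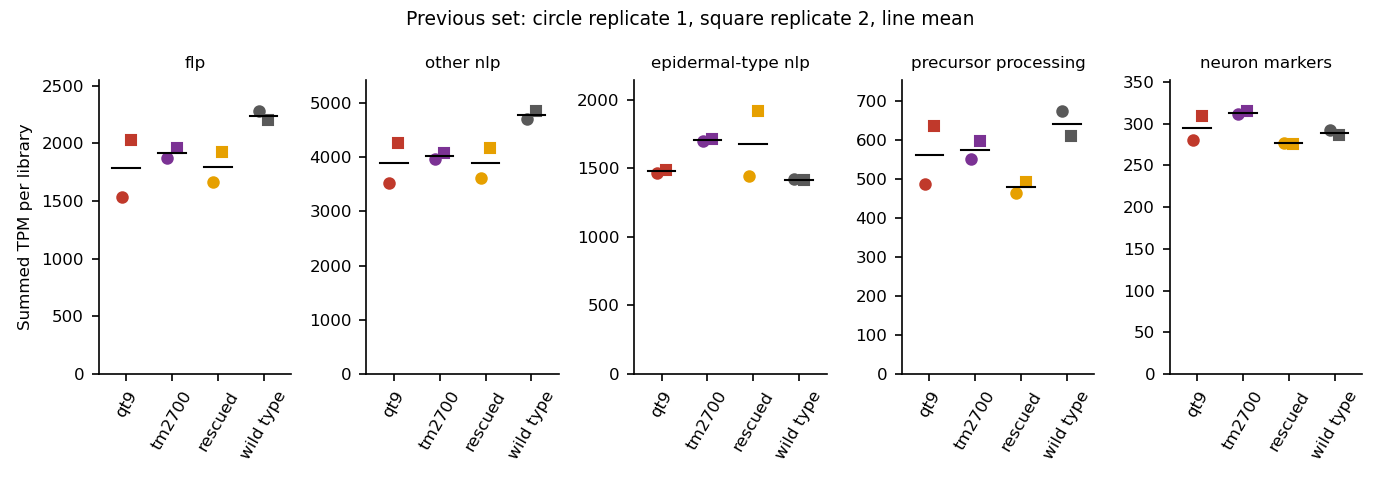
Summed TPM in each library of *sid-1(qt9)*, *sid-1(tm2700)*, the rescued strain and wild type of the previous set for the *flp* genes, other *nlp* genes, epidermal-type *nlp* genes, 9 precursor processing genes and 12 neuron markers, with lines at the group means. The *flp* sum is lowest in replicate 1 of *sid-1(qt9)* (1537 TPM) and highest in wild type (2204 to 2276 TPM), while the neuron markers lie between 275.5 and 314.5 TPM in all 8 libraries.

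*sid-1(tm2700)* was also compared with its rescued strain, which shares the deletion and carries the transgene. Of 100 members tested, 0 were called by edgeR, limma voom or DESeq2 (11 at an unadjusted p under 0.05), beside 2.07% of all genes changed. The class medians were -0.01, -0.03 and -0.15 for the *flp*, other nlp and epidermal-type genes. The lowest p was that of *nlp-20*, with 69.1 and 69.0 CPM in *sid-1(tm2700)*, against 87.5 and 87.6 CPM in the rescued strain (log2 fold change -0.35, SE 0.11, adjusted p = 0.0964 by edgeR). Without replicate 1 of the rescued strain 9 members were called and the *flp* median was -0.18, and without its replicate 2 there were also 9 calls and a median of 0.16. Muscle markers were higher in *sid-1(tm2700)* than in the rescued strain for 7 of 10, and epidermis markers for 3 of 12.

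**Figure D5:**
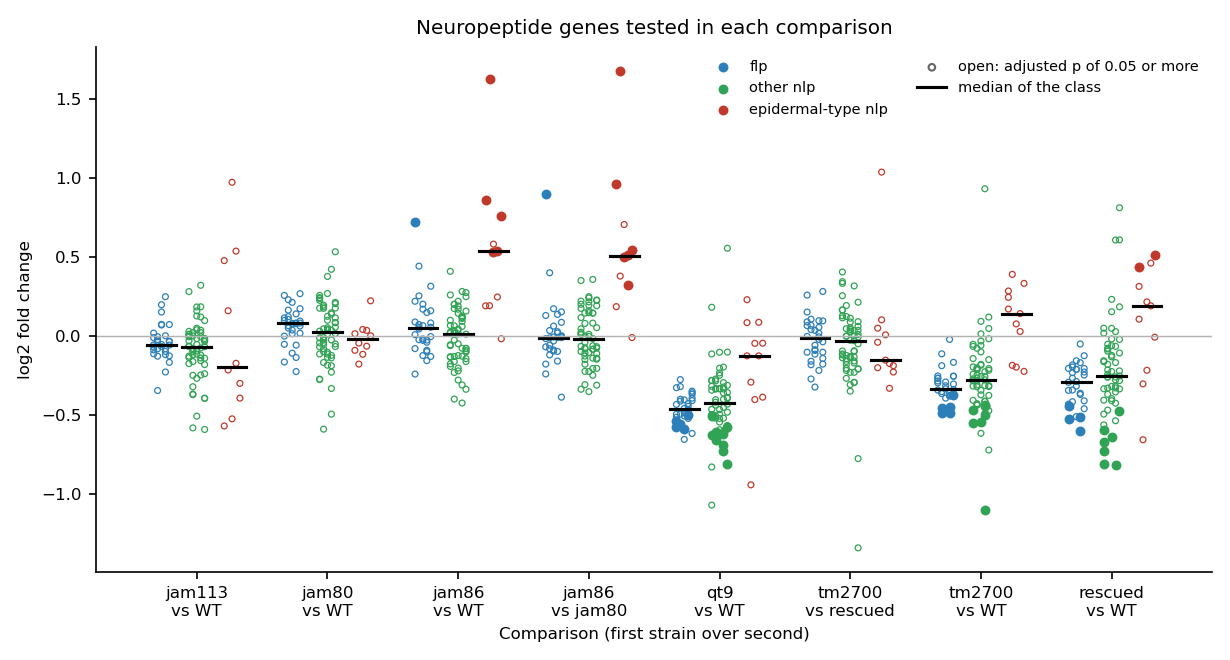
Log2 fold change of every tested member in 8 comparisons, each strain against wild type (WT) of its own set or against the strain named, with filled points for an adjusted p under 0.05 (edgeR) and a bar at the median of each class. Filled epidermal-type points lie above 0 in both comparisons of *sid-1(jam86)*, and the *flp* medians are -0.46, -0.34 and -0.29 in *sid-1(qt9)*, *sid-1(tm2700)* and the rescued strain against wild type.

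How far the members vary without any change of genotype was read from the wild types of the 2 plate-grown sets, for which set, time of growth and sequencing cannot be told apart. Of 98 members tested, 16 were higher and 30 lower in wild type of the deletion set than in wild type of the nonsense and revertant set. Over all genes tested 64.4% changed, with 31% higher and 33.4% lower. With counts rebuilt from TPM and length the split was 23 and 23, and with upper-quartile normalization 13 and 38, a scaling under which the median of all genes was -0.13 in place of -0.04. The epidermal-type genes were lower for 8 of 10, with a median of -0.66. *nlp-24* had a mean of 40.8 ± 6.01 CPM in wild type of the deletion set, against 250.5 ± 6.78 CPM in wild type of the nonsense and revertant set (SD, n = 3 each; log2 fold change -2.62, SE 0.098, adjusted p = 1.09e-09 by edgeR). *nlp-33* and *nlp-30* had log2 fold changes of -1.58 and -1.57, and *nlp-27* of -1.04, while *nlp-29* did not pass.

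The *flp* and other *nlp* genes went both ways between the wild types. *flp-14* had a mean of 15.1 ± 0.544 CPM in wild type of the deletion set, against 6.61 ± 1.15 CPM in wild type of the nonsense and revertant set (SD, n = 3 each; log2 fold change 1.201, adjusted p = 1.74e-06 by edgeR). *flp-17* (1.06) and *nlp-59* (0.98) were higher as well, and *nlp-67* (-1.15), *nlp-18* (-1.01) and *nlp-56* (-0.98) were lower. *nlp-19* and *nlp-5* were also called higher, with log2 fold changes of 0.87 to 1.32 and 0.93 to 1.21 over the alternatives, and *nlp-63* lower (-1.13 to -0.78). Of the 12 epidermis markers 11 were lower in wild type of the deletion set (median -1.47; 827 to 1124 TPM, against 2525 to 2737 TPM), and 9 of 12 neuron markers were lower by the counts (median -0.60). By summed TPM the neuron markers went the other way, with 259 to 298 TPM in wild type of the deletion set, against 241 to 259 TPM in wild type of the nonsense and revertant set. The difference in *nlp-24* between these wild types was larger than any change of an epidermal-type gene between strains within a set.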

How the data were processed

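After adapter trimming by cutadapt, the authors quantified transcripts with salmon (versions not given in the sources used here; the submitters' processing notes name build ce11). The deposited values used are salmon's estimated counts per transcript, not normalized, and the authors' TPM, scaled to effective length. Of 35749 transcripts, 31176 matched a gene by identifier and 4485 by sequence name in the WBcel235 annotation of Ensembl release 115, and 88 did not match. Counts were summed per gene and rounded. Genes above 0.1 CPM in at least 3 libraries (2 in the previous set) were normalized by TMM and tested with edgeR 4.0.16 (R 4.3.3), with only the compared groups in each fit and an adjusted p under 0.05 as threshold. Standard errors came from the fold change and the F statistic. The fits were checked on simulated counts. CPM are scaled over each set, except between the wild types, scaled over those 6 libraries.

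Comparisons between groups were repeated with DESeq2 1.42.0, voom in limma 3.58.1, upper-quartile normalization, no filter, counts rebuilt from TPM and length, the replicate number as a block (not between the wild types), and each library left out. The interaction tests were repeated without the rebuilt counts and the block. The marker and pathway lists were counted by edgeR only. Named are every epidermal-type gene, the 5 most abundant flp and other *nlp* genes, and up to 10 called members with the largest change per comparison, or the member with the lowest p where none was called. Between the wild types *nlp-18*, *nlp-56* and *nlp-59* are named in addition. Members and lists were chosen with earlier results of these data known. No sequences are shown.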

Additional observations from a re-analysis of the deposited data

Results flagged for a closer look

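*nlp-29* differed in its change between strains of different sets. Its log2 fold change was 0.86 in *sid-1(jam86)* and -0.57 in *sid-1(jam113)*, each against wild type of its own set, and the difference of 1.42 passed an interaction test (adjusted p = 0.0347 by edgeR). The call was lost in 6 of the 12 fits that left out 1 library (adjusted p from 0.0704 to 0.117), and kept with limma voom, DESeq2, upper-quartile normalization and no filter. The test was added after both values were seen, and strain and set cannot be told apart in it.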

How the results depend on the processing

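Counts are of members called unless all genes are named. No share of all genes is given for these settings, so a rise or fall in a count cannot be read as particular to the members. For *sid-1(jam113)*, DESeq2 gave 3, and for its difference from *sid-1(jam80)* 1. For *sid-1(jam86)* against *sid-1(jam80)*, DESeq2 gave 11. For the difference of *sid-1(jam86)* from *sid-1(jam113)* the count of 1 was 6 with DESeq2 and 2 without the filter. For *sid-1(qt9)* the count of 14 was 2 with upper-quartile normalization, 3 with rebuilt counts and 47 without the filter. For *sid-1(tm2700)* against wild type it was 23 without the filter in place of 12, and against the rescued strain 1 with rebuilt counts. For the rescued strain against wild type it was 7 with DESeq2 and 7 with rebuilt counts in place of 13. The cause was not tested.

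With 1 library left out at a time, counts ran from 0 to 8 for *sid-1(jam113)*, from 5 to 12 for *sid-1(jam86)* against wild type and from 5 to 12 against *sid-1(jam80)*. They ran from 2 to 61 for *sid-1(qt9)*, from 9 to 32 for *sid-1(tm2700)* against wild type and from 0 to 9 against the rescued strain, and from 6 to 32 for the rescued strain against wild type. For the differences of *sid-1(jam113)* from *sid-1(jam80)* and of *sid-1(jam86)* from *sid-1(jam113)* they ran from 0 to 9 and from 0 to 10. In the fits with 1 library in an arm, that library is taken to vary like the other group. *sid-1(jam80)* had 0 calls throughout. Of 712 values of single genes under the alternatives, 608 kept their side of the threshold, 91 lost the call, 13 gained it and 0 changed sign while called.

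The replicate numbers were not taken to pair the libraries, since correlations of same-numbered libraries were not all above 0.1 in any comparison. For *sid-1(jam113)* against wild type they were 0.462, 0.126 and -0.08 for replicates 1, 2 and 3. In the previous set, with 2 libraries per group, both correlations of a comparison are equal by construction and say little about pairing. With the replicate number as a block, *sid-1(tm2700)* against wild type gave 2 in place of 12, *sid-1(qt9)* 17, the rescued strain 18, and *sid-1(jam86)* 6 against either strain, where the call of *nlp-34* against *sid-1(jam80)* was lost (adjusted p = 0.0706). Crossed pairs, added after seeing the data, gave 31 for *sid-1(qt9)* and 58 for *sid-1(tm2700)*, again without a share of all genes. Members under the filter, such as *flp-23*, were too shallow to test.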

Other observations

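The levels of the *flp* and other *nlp* genes stood in another proportion to those of the epidermal-type genes in the previous set than in the plate-grown sets. This was not tested because culture, extraction, library kit and reads differ together. By CPM from library totals, all 31 *flp* genes were higher in wild type of the previous set than in wild type of the nonsense and revertant set, with a median log2 ratio of 2.40 (pseudocount 0.1), and 57 of 60 other *nlp* genes were higher (median 2.51). Only 4 of the 11 epidermal-type genes were higher (median -0.63). These counts include *flp-23*, *nlp-22* and *nlp-32*, with at most 1, 4 and 8 reads in a wild-type library. No ratio over all genes was set beside them, so they do not show a difference particular to the members. Against wild type of the deletion set the medians were 2.25, 2.22 and 0.15.

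*nlp-39* had the largest ratio. It had 1153 and 1280 reads in wild type of the previous set, against 0, 4 and 11 reads in wild type of the nonsense and revertant set and 11, 2 and 4 in that of the deletion set. Its transcript has 281 bases, for which the authors' effective length was 37 in the previous set and 103 to 148 in the plate-grown sets, so TPM raises this gene more in the previous set than counts do. In the 6 libraries of *sid-1(qt9)*, *sid-1(tm2700)* and the rescued strain it had 557 to 997 reads.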
